A study of Mus musculus with 22 samples.

Results

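The comparison described here is that of W330R with WT on day 2 of adipocyte differentiation, and its libraries were taken by their labelled genotype and time. It rests on 4 of the 22 RNA-seq libraries of the series, 2 from W330R cells and 2 from WT cells. All libraries come from C3H 10T1/2, a mouse mesenchymal stem cell line that can form adipocytes, and the study asks what DNA hypermethylation by DNMT3A1 does to differentiation. Each line expressed 1 form of DNMT3A1, the long isoform of a de novo DNA methyltransferase: DNMT3A-WT, the mutant DNMT3A-W330R, or the double mutant DNMT3A-W330R-R181E (spelled as in the labels, while the count table's column names give another residue for its second change). The WT and W330R cells of day 2 had both been kept for 2 days with troglitazone at 5 μM, insulin at 5 μg/mL, dexamethasone at 1 μM and isobutylmethylxanthine at 0.5 mM in DMEM with 10% FBS, so the 2 groups shared every agent and differed in the DNMT3A allele. Whether the cells kept their own Dnmt3a, which promoter drove the expressed form, and whether a line was 1 clone or a pool are not given in the sources used here, nor is it given whether replicates were separate cultures. P-values therefore rest on the spread between replicate libraries, estimated over all 22 libraries together, and that spread may be technical.

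As background, DNMT3A adds methyl groups to CpG sites through its catalytic domain, and its PWWP domain, which holds the tryptophan changed in W330R, binds methylated histone H3, a contact whose loss is known to send the enzyme to Polycomb-marked regions. Adipocyte formation starts with a pulse of the transcription factors C/EBPβ and C/EBPδ, which switch on PPARγ and C/EBPα, and these then switch on genes for lipid synthesis, lipid storage and insulin response. Interferon-stimulated genes are a separate set, switched on in nearly all cell types when the interferon receptor signals to the nucleus, and they encode antiviral proteins and the antigen display machinery.

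The day-2 libraries held between 13567589 and 26467144 counts, against 8859501 to 47453908 over all 22. Levels are given as CPM, counts per 1000000 of the library total after TMM scaling, always with replicate 1 before replicate 2. Replicates of one condition differed far more than counting error on day 2, with a median gene variance of 25.6 times the counting expectation in WT and 15.3 times in W330R. The undifferentiated replicates stood at 1.77 and 1.5 times. They entered the same estimate of spread, which may therefore be too small for day 2. Markers of the labelled cell type were present, since all 14 mesenchymal markers were measured and summed to between 4963 and 6233 CPM. Markers of other cells were near 0: macrophage markers summed to at most 14.2 CPM and endothelial markers to at most 3.90 CPM, and none of the markers of macrophages, lymphocytes, endothelium, epithelium, neurons, pluripotent cells or skeletal muscle was called. Adipocyte markers summed to 3550 and 3194 CPM in WT and to 2896 and 2223 CPM in W330R. In such bulk samples fewer cells of a type and less RNA per cell cannot be told apart.

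W330R cells on day 2 had higher levels of a part of the interferon-stimulated, MHC class I and developmental transcription factor genes. They had lower levels of Cebpa and of a part of the genes for lipid and sterol metabolism and for the amino acid stress response. Of 14520 genes tested, 909 (6.26%) were called, meaning an adjusted p under 0.05 in edgeR's quasi-likelihood test with Benjamini-Hochberg adjustment, in which the replicate number was a block. Higher in W330R were 544 genes (3.75%) and lower were 365 (2.51%), with median log2 fold changes of 1.10 and -0.89 against 0.0018 over all genes tested. All 909 moved the same way in both same-numbered pairs of libraries, and the groups did not overlap in 543 of the higher and 363 of the lower genes, while 42.9% of all genes tested had groups that did not overlap. The calls were made on these same values, so neither count is support of its own. The change exceeded log2 1 in 307 higher and 152 lower genes. The lower calls leaned on 1 WT library. WT replicate 2 lay above WT replicate 1 in 295 of the 365, against 7181 of all 14520 genes tested. Without the replicate block 445 genes were called, all of them among the 909 and in the same direction. Leaving out replicate 2 of WT gave 85 calls, replicate 2 of W330R 185 and replicate 1 of WT 498. In the 4 libraries alone and without the block edgeR called none, with 1579 genes at an unadjusted p under 0.05, while DESeq2 on all libraries called 1608.

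**Figure D1:**
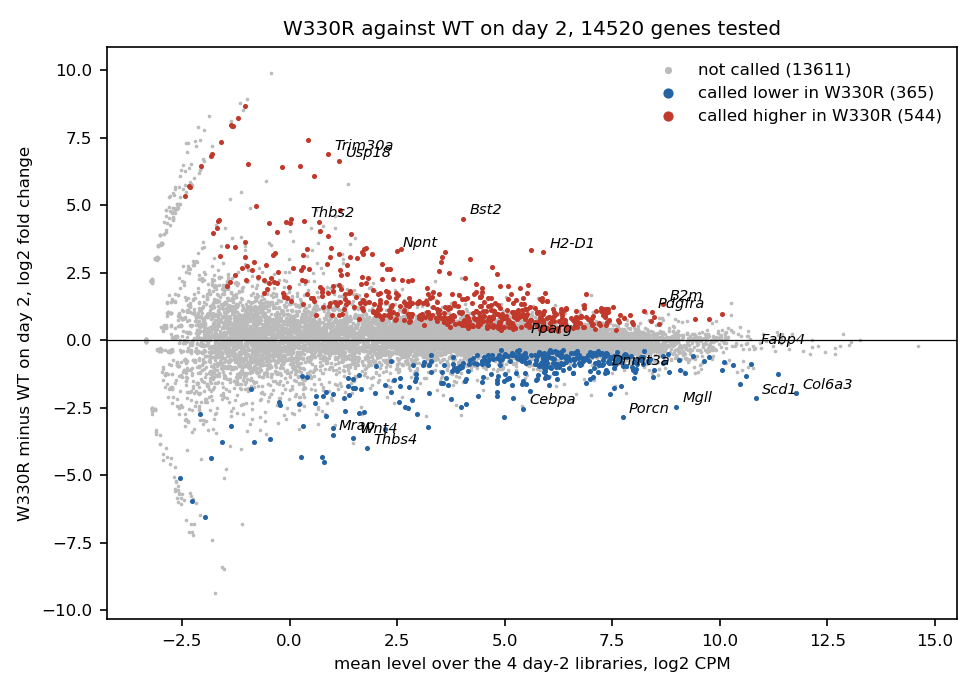
Log2 fold change of W330R over WT on day 2 (vertical axis) against the mean level over the 4 libraries in log2 CPM (horizontal axis), 1 point per gene tested, with called genes in colour. Called genes lie on both sides of 0, 544 above and 365 below, and the steep rises belong to genes of low level such as Trim30a and Usp18. Points on the curved edges at the left come from genes with almost no counts in 1 group, where the fitted fold change is not a measured size.

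The targeted gene was measured first. Dnmt3a, whose counts may come from the expressed form and from the cell's own gene, stood at 175 and 322 CPM in WT and at 88.4 and 142 CPM in W330R. Both W330R libraries lay below both WT libraries, with a log2 fold change of -1.09 ± 0.23 (SE, n = 2 libraries per group, edgeR adjusted p = 0.014), and the call was lost without the block (adjusted p = 0.156). The 2 sources of Dnmt3a counts cannot be told apart, so this value checks neither label. Dnmt1, which copies methylation after replication, had 42.4 and 33.4 CPM in WT and 39.9 and 48.1 CPM in W330R and was not called. Dnmt3b, the other de novo enzyme, stood at 4.3 and 3.84 CPM in WT and 3.9 and 4.11 CPM in W330R, and was not called either. Of 17 tested enzymes and readers of DNA methylation, 2 fell and none rose, against 2.51% of all genes called lower and 3.75% called higher. Beside Dnmt3a this was Tdg, the glycosylase that removes oxidised methylcytosine, at 34.1 and 42 CPM in WT and 29.4 and 24.5 CPM in W330R (log2 fold change -0.51 ± 0.13, adjusted p = 0.0346). Of 37 Polycomb subunit genes, 1 rose (Phc2, 85.6 and 78.9 against 120.0 and 122 CPM) and none fell, which is near the share of all genes. Without the block no member of either list was called.

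Interferon-stimulated genes were the group with the highest median. Of 64 tested members of the list, 22 rose and none fell, a share of 34.4% against 3.75% of all genes called higher. Their median log2 fold change was 2.21, or 1.93 with the 9 genes at the counting floor in 1 group set to their bounds (a floor of 3 counts per library). The 42 other members did not pass the test, although 60 of the 64 had a positive fold change. Without the replicate block 13 of the 22 calls held. Leaving out 1 library left 7 calls without W330R replicate 1, 4 without W330R replicate 2, 2 without WT replicate 1 and 0 without WT replicate 2 (edgeR). In the last of these fits 46 of 67 members were higher at an unadjusted p under 0.05, and DESeq2 on all libraries called 39 of 64 higher.

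The promoters of several of these genes carry the paired GAAA element that interferon-activated transcription factors are known to bind. RefSeq promoter windows (GRCm38.p6, 250 bases before to 50 bases after the start) were at hand for 18 of the 22, and in 8 of these genes at least 1 window holds GAAA, any 2 bases and a second GAAA on either strand before the start. Counted window by window, 2.98% of all 32851 windows hold it, a share that was not set against the count of genes. A match is a description of the letters and not of binding. Sp100, Sp110, H2-K1, H2-D1, Oasl2, Ifit2, Irf1, Ddx58, Parp12 and Dtx3l had windows without a match. The windows below come from genes with a match, of which Trim30a and Ifi203 are not shown. They run from 5′ to 3′ on the gene's strand, all before the start, with each match in capitals (a pair of TTTC where the match lies on the other strand).
Bst2 (chr8:71537542-71537647, minus strand): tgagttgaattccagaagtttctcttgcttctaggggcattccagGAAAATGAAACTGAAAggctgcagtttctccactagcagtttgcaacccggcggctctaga
Oas1a (chr5:120907526-120907590, minus strand): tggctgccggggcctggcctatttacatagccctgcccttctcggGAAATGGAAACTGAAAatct
Irgm1 (chr11:48871421-48871495, minus strand): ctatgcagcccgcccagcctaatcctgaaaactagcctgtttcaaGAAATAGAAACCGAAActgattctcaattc
Igtp (chr11:58199477-58199555, plus strand): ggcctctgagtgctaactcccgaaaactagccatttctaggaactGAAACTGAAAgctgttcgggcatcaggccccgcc
Gbp7 (chr3:142530238-142530335, plus strand): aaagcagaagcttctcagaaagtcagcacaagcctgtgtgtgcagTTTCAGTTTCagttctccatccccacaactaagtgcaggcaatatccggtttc
B2m (chr2:122147503-122147602, plus strand): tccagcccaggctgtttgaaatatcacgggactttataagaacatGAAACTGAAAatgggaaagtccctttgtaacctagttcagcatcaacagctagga

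The antiviral genes had low levels in WT. Bst2, which encodes the tether that holds budding virus on the cell, stood at 2.27 and 4.43 CPM in WT and at 129.9 and 52 CPM in W330R. The log2 fold change was 4.5 ± 1.07 (edgeR adjusted p = 0.0258), and the 2 W330R libraries differed from each other by more than the 2 WT libraries did. Usp18, the protease that strips ISG15 from proteins and dampens the receptor, had 0.302 and 0.0984 CPM in WT and 37.4 and 7.96 CPM in W330R (6.64 ± 1.5 on the log2 scale, adjusted p = 0.0206). Oas1a and Oasl2, of the family of double-stranded RNA sensors, were at or under 3 counts in both WT libraries. Oas1a reached 16.8 and 3.58 CPM in W330R, a mean 54.4 times the mean WT floor (edgeR adjusted p = 0.0441). Oasl2 reached 28.4 and 2.66 CPM, a mean 83.1 times that floor (edgeR adjusted p = 0.0437). W330R replicate 1 carries most of both means, so neither ratio is a lower limit for each library. Trim30a, a ubiquitin ligase gene of a mouse cluster, had 0 and 0.246 CPM in WT and 34.2 and 9.93 CPM in W330R. Its neighbours Trim34b, Trim12c and Trim30d were also called higher. Since these are close copies, reads may have been split between them and each value is uncertain.

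Further sensors and effectors rose as well. Ddx58, which encodes the RNA sensor RIG-I, had 21.5 and 20.4 CPM in WT and 113 and 56.9 CPM in W330R (log2 fold change 1.94 ± 0.43, adjusted p = 0.0181). Irgm1, an immunity-related GTPase, rose from 13.4 and 9.99 to 68.5 and 26 CPM, and the related Igtp from 0.453 and 0.639 to 9.73 and 3.54 CPM. The guanylate-binding protein gene Gbp7 rose from 0.302 and 0.541 to 10.9 and 4.03 CPM. In each of these the groups stood apart, with replicate 1 of W330R above replicate 2. Irf1, a transcription factor gene that responds to interferon, rose less, from 18.2 and 14.5 to 31.2 and 37.2 CPM (log2 fold change 1.07 ± 0.23, adjusted p = 0.0152). The neighbouring genes Parp14, Dtx3l and Parp9, which encode ADP-ribosylation and ubiquitin enzymes, had log2 fold changes of 2.81, 2.18 and 2.24, and all 3 were called.

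Antigen display genes were higher in part too. In a list of MHC class I heavy chain and loading genes, drawn up after values had been seen and so no support of its own, 11 of 26 tested members were called higher, beside 3.75% of all genes, and none lower, and the median log2 fold change was 1.36. Without the block 7 of these calls held. Of the 11, 3 are also in the interferon-stimulated list. H2-K1, a classical heavy chain, stood at 8.16 and 26.7 CPM in WT and at 160.2 and 163 CPM in W330R (log2 fold change 3.33 ± 0.71, adjusted p = 0.0154). H2-D1, another, stood at 12.5 and 28.2 CPM in WT and at 201 and 174 CPM in W330R (3.27 ± 0.58, adjusted p = 0.00648). Here the W330R replicates lay close together, unlike those of the antiviral genes. B2m, the shared light chain, rose from 209 and 326 to 749 and 557 CPM, a smaller step on the log2 scale (1.33 ± 0.36, adjusted p = 0.0437). Of the peptide transport and trimming genes, Tap1 had 11.6 and 9.49 CPM in WT and 19.7 and 24.3 CPM in W330R and did not pass (adjusted p = 0.0838). Nor did Tapbp, at 26.5 and 31.4 CPM in WT and 42 and 46 CPM in W330R. The heavy chain genes are near-identical copies, so the share of each is uncertain.

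The tested genes for interferons and their receptors, and Stat2 and Irf9 of the signalling below them, were not called. Of 21 interferon genes in the table only Ifne and Ifnz had enough counts to be tested, and these summed to at most 2.40 CPM in any of the 4 libraries. Of the chains of the type I receptor, Ifnar1 had 102 and 123 CPM in WT and 94 and 106 CPM in W330R, and Ifnar2 had 31.9 and 39.3 CPM in WT and 38.1 and 46.6 CPM in W330R. None of the 8 tested receptor and kinase genes was called. Irf9 had 21.2 and 16.9 CPM in WT and 94.1 and 32.6 CPM in W330R (adjusted p = 0.0777). For Stat2 the levels were 31.3 and 33.7 CPM and, in W330R, 111 and 55.4 CPM (adjusted p = 0.154), and for both genes the groups stood apart.

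The 2 W330R replicates did not show this program to the same degree. Replicate 1 lay above replicate 2 in 20 of the 22 called genes, while over all 14520 genes tested it lay above in 6902. The summed level of the list was 1121 and 1765 CPM in WT and 3926 and 2577 CPM in W330R. Isg15 and Ifit1 are classical markers of the response, named here after their values were seen. Isg15 had 0.378 and 0.344 CPM in WT and 16.7 and 2.36 CPM in W330R (adjusted p = 0.083), and Ifit1 had 0.68 and 0.197 CPM in WT and 68 and 2.63 CPM in W330R (adjusted p = 0.0605). Neither passed the test. In the double mutant on day 2, given here only by its levels, the list summed to 1021 and 1625 CPM, near the WT values. For Bst2 it had 4.6 and 9.66 CPM and for H2-K1 8.87 and 28 CPM.

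**Figure D2:**
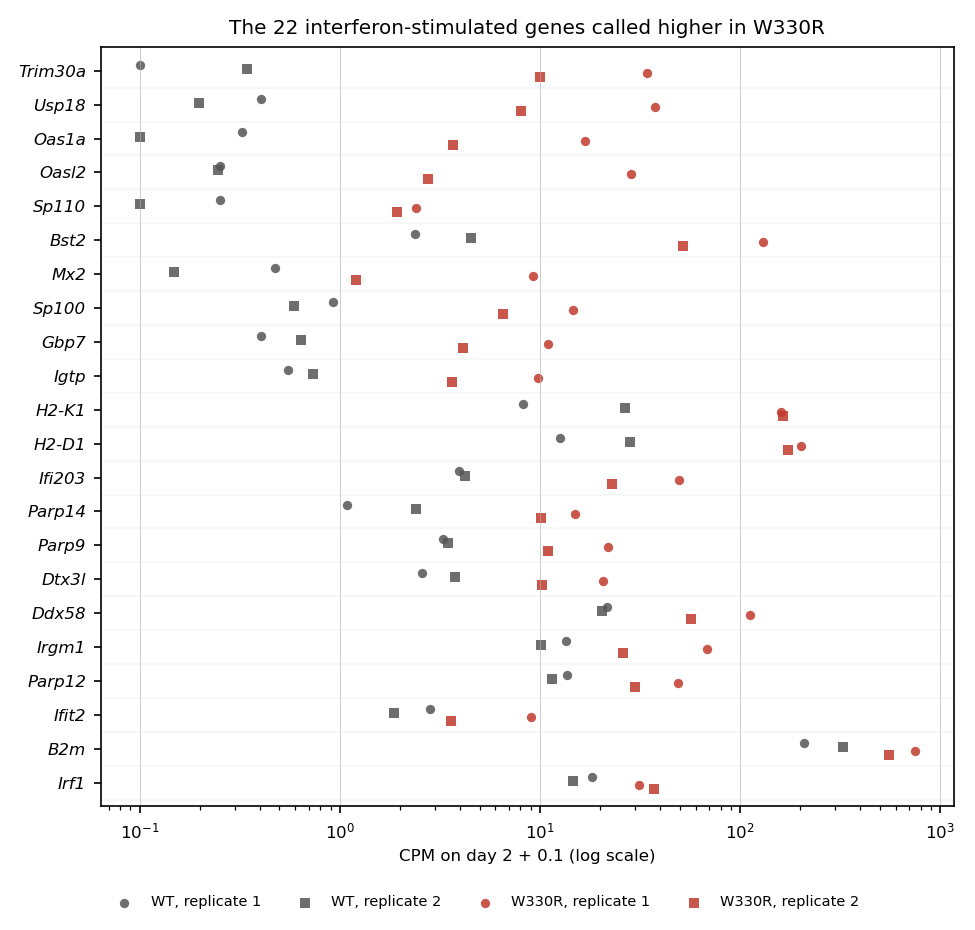
Level on day 2 of each of the 22 interferon-stimulated genes called higher, in CPM plus 0.1 on a log axis, with WT in grey, W330R in red, circles for replicate 1 and squares for replicate 2. In all 22 genes both red points lie to the right of both grey points, and the red circle lies right of the red square in 20.

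Among the core adipogenic factors Cebpa fell, and Pparg, Cebpb and Cebpd were not called. Cebpa, which encodes C/EBPα, stood at 76.9 and 134 CPM in WT and at 16.5 and 19.4 CPM in W330R. The log2 fold change was -2.53 ± 0.28 (edgeR adjusted p = 0.000459, and 0.00268 without the block), and the double mutant had 39.8 and 53.8 CPM, between the 2 groups. Pparg, which encodes its partner PPARγ, the target of troglitazone, had 30.9 and 57.1 CPM in WT and 45.7 and 45.9 CPM in W330R. The W330R values fell inside the WT range and Pparg was not called (adjusted p = 0.855). Of the factors of the first pulse, Cebpb stood at 412 and 979 CPM in WT and 488 and 623 CPM in W330R, and Cebpd at 257 and 454 CPM in WT and 325 and 489 CPM in W330R, both with overlap. Of 26 tested early adipogenic factors 1 rose and 2 fell, beside 3.75% higher and 2.51% lower of all genes tested. The one that rose was Ebf3 (0.75 ± 0.17 on the log2 scale). Those that fell were Rora, a nuclear receptor gene (42.1 and 54.2 against 19.3 and 14.7 CPM), and Klf9, a glucocorticoid-responsive factor gene (83 and 103 against 57.1 and 71.2 CPM). Without the block the calls of Ebf3 and Klf9 were lost and that of Rora held.

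Genes of the adipocyte program, a list that holds Pparg and Cebpa themselves, were lower in part. Of 61 tested members 13 fell and 2 rose, 24.6% against 6.26% of all genes, with a median log2 fold change of -0.57. Of these 15 calls 12 held without the block. Cebpa is among the 13 falls, as is Sqle, which is counted again in the cholesterol list. In 2 of the 13 WT replicate 1 was above WT replicate 2. Without WT replicate 2, 3 members were called lower, and without W330R replicate 2, 4 were. Mrap, the melanocortin receptor helper made by adipocytes, fell from 7.85 and 6.1 CPM in WT to 0.214 and 0.952 CPM in W330R (log2 fold change -3.49 ± 0.57, adjusted p = 0.00505). Slc2a4, which encodes the insulin-responsive glucose transporter GLUT4, fell from 4.23 and 4.62 to 1.39 and 1.33 CPM. The lipid droplet gene Cidec fell from 375 and 428 to 217 and 218 CPM (-0.88 ± 0.19 on the log2 scale, adjusted p = 0.0234). These 3 genes had groups that stood apart, with W330R at about the same level in both replicates for the last 2.

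Several standard adipocyte markers did not pass. Fabp4, the fatty acid carrier, had 2113 and 1919 CPM in WT and 1832 and 1419 CPM in W330R (adjusted p = 0.733). Adipoq, which encodes adiponectin, had 37.7 and 47.1 CPM in WT and 15.6 and 31.1 CPM in W330R, with no overlap but no call (log2 fold change -0.89 ± 0.31, adjusted p = 0.104). Lipe, Plin1, Lpl, Cd36 and Cfd had adjusted p-values of 0.982, 0.806, 0.391, 0.368 and 0.852. The 2 members that rose were Npr3, the natriuretic peptide clearance receptor gene (14.3 and 7.92 against 112 and 36.5 CPM), and Angptl4, which encodes a secreted inhibitor of lipoprotein lipase (38.1 and 29 against 114 and 109 CPM).

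The enzymes of lipid synthesis and storage moved in 1 direction only among those called. Of 52 tested members 10 fell and none rose, beside 2.51% of all genes called lower, with a median log2 fold change of -0.32 over the list. Of the 10, 7 are also in the adipocyte program, and 2 were called without WT replicate 2 and 2 without W330R replicate 2. Scd1, the stearoyl-CoA desaturase gene, was among the most abundant, at 2957 and 5158 CPM in WT and 1029 and 709 CPM in W330R (log2 fold change -2.15 ± 0.32, adjusted p = 0.00271). Mgll, which encodes the lipase of the last step of triglyceride breakdown, fell from 851 and 1806 to 272 and 157 CPM. Acsl1, which activates fatty acids, fell from 2278 and 2752 to 901 and 717 CPM, and Me1, the malic enzyme that supplies NADPH, from 189.8 and 310.3 to 109 and 106 CPM. In all 4 genes replicate 2 of WT was higher than replicate 1, and W330R lay below both. In none of the 10 falls was WT replicate 1 above WT replicate 2. Fasn, the fatty acid synthase gene, had 319.9 and 380.5 CPM in WT and 315 and 180.9 CPM in W330R and did not pass (adjusted p = 0.197).

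Sterol genes were lower in part. Of 30 tested genes of cholesterol synthesis and uptake 11 fell and 2 rose, 43.3% against 6.26% of all genes, with a median log2 fold change of -0.64, and 10 of the 13 calls held without the block. Without WT replicate 2, or without W330R replicate 2, 1 member was called lower, and without W330R replicate 1, 6 were. Hmgcs1, the HMG-CoA synthase gene near the start of the pathway, stood at 493 and 649.7 CPM in WT and 256 and 182 CPM in W330R (log2 fold change -1.36 ± 0.25, adjusted p = 0.00774). Cyp51, the lanosterol demethylase gene, fell from 267 and 467 to 136 and 73 CPM, and Dhcr7, of the last step, from 30.6 and 51.6 to 12.7 and 21.5 CPM. Abcg1, which encodes a cholesterol exporter and is not an enzyme of synthesis, fell furthest of the list, from 14.1 and 29.7 to 1.5 and 5.37 CPM (-2.72 ± 0.36, adjusted p = 0.0016). In none of the 11 falls was WT replicate 1 above WT replicate 2. The 2 that rose were Mylip (0.69 ± 0.17), a ubiquitin ligase gene that lowers LDL receptor protein, and Acat2 (0.57 ± 0.12), a cytosolic thiolase gene.

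**Figure D3:**
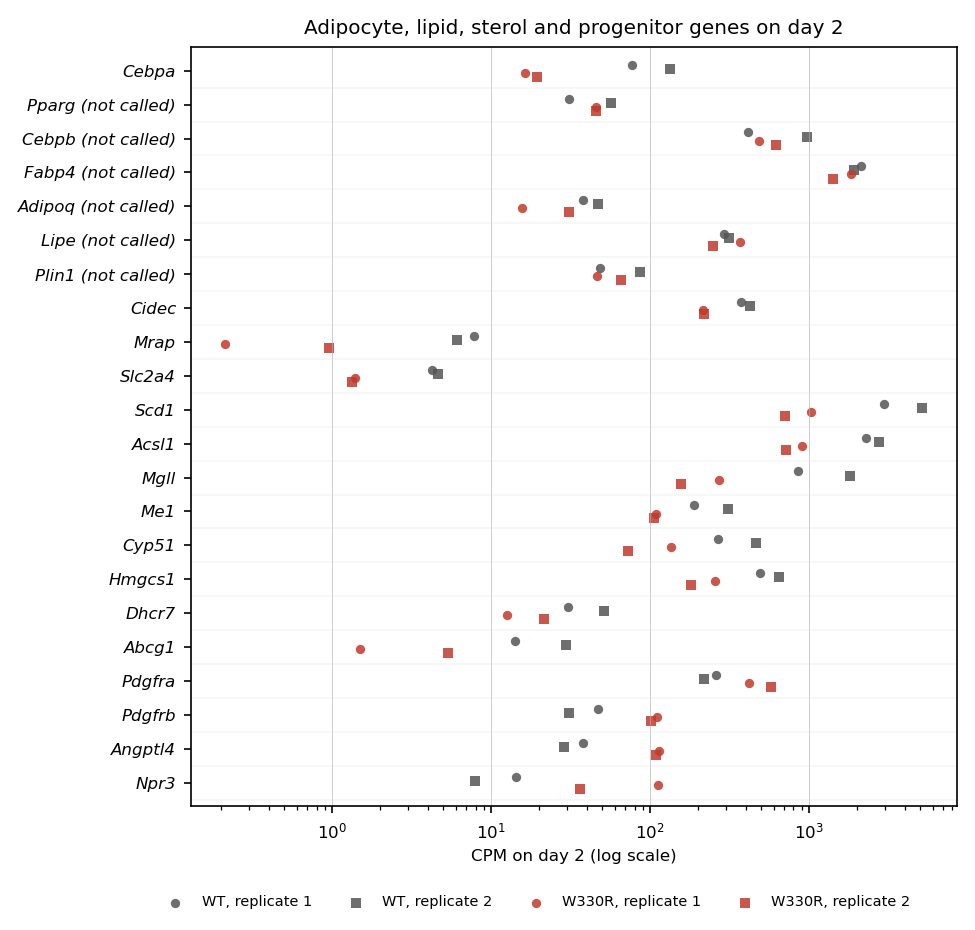
Level on day 2 in CPM on a log axis of genes of the adipocyte, lipid, sterol and progenitor groups, with WT in grey, W330R in red, circles for replicate 1 and squares for replicate 2. Cebpa, Mrap, Scd1 and Abcg1 stand well to the left in both W330R libraries, Pparg and Cebpb overlap, and Pdgfra, Pdgfrb, Angptl4 and Npr3 stand to the right.

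Amino acid stress genes were lower in part. Of 40 tested members 11 fell and none rose, beside 2.51% of all genes called lower. The median log2 fold change was -0.59, and 5 of the calls held without the block. The list is not confined to amino acid supply, since the falls include Atf4, Atf5, Trib3, Hspa5 and Vldlr. In 1 of the 11 WT replicate 1 was above WT replicate 2. Without WT replicate 2, or without W330R replicate 2, 2 members were called. Atf4 itself had 472 and 650.2 CPM in WT and 310.4 and 307 CPM in W330R (log2 fold change -0.84 ± 0.20, adjusted p = 0.0276). Trib3, a pseudokinase gene it switches on, fell from 68.3 and 83.3 to 29.2 and 19.6 CPM, and Gpt2, an alanine aminotransferase gene, from 188 and 246 to 81.9 and 83.5 CPM. Vldlr fell most, from 48.2 and 69.3 to 14.2 and 12.9 CPM, and encodes a lipoprotein receptor whose main known role lies outside amino acid supply. This list was lower in undifferentiated W330R cells as well, where 11 of 40 were called lower, with a median of -0.75. For none of its members was the W330R effect on day 2 called different from the undifferentiated effect.

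Developmental factor genes were higher in part. Of 94 tested homeobox and other developmental transcription factor genes 14 rose and none fell, 14.9% against 3.75% of all genes called higher, with a median log2 fold change of 0.41, and 6 of the calls held without the block. Without WT replicate 2, 2 members were called, without W330R replicate 2, 6 and without WT replicate 1, 9. Prrx2, a homeobox gene of limb mesenchyme, stood at 17.7 and 29.1 CPM in WT and at 88.2 and 102 CPM in W330R (log2 fold change 2.03 ± 0.32, adjusted p = 0.0035). The zinc finger factor genes Osr1 and Osr2 had log2 fold changes of 2.00 ± 0.33 and 1.4 ± 0.32, and the forkhead gene Foxd1 one of 1.21 ± 0.21. Each of the 14 had groups that did not overlap, as had 543 of the 544 genes called higher and 42.9% of all genes tested. The other members called higher were Foxf1, Hoxa2, Tbx1, Nr2f1, Foxc1, Foxp1, Prrx1, Twist2, Ebf3 and Meis2, with log2 fold changes from 0.74 to 1.14.

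Progenitor genes held calls in both directions. Of 47 tested preadipocyte and progenitor genes 8 rose and 3 fell, beside 3.75% higher and 2.51% lower of all genes tested, and the median log2 fold change was 0.26, or 0.45 with genes at the counting floor set to their bounds. Of the 8, 4 are also among the developmental factors. Without WT replicate 2, 2 members were called higher, and 4 without WT replicate 1 or without W330R replicate 2. Pdgfra and Pdgfrb, the receptors for platelet-derived growth factor, both rose. Pdgfra stood at 260.2 and 218 CPM in WT and 418 and 576 CPM in W330R (1.04 ± 0.26 on the log2 scale, adjusted p = 0.033), and Pdgfrb at 47 and 30.9 CPM in WT and 110.2 and 101 CPM in W330R (1.46 ± 0.17, adjusted p = 0.000689). Wisp2, a secreted WNT-responsive gene of preadipocytes, rose from 14.3 and 19.9 to 53.6 and 84.4 CPM. The 3 that fell were Mcam (43.9 and 54.4 against 13.3 and 20.1 CPM), a perivascular adhesion gene, Col15a1 (-1.67 on the log2 scale) and the tissue factor gene F3 (-1.19).

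WNT and TGF-β genes were split. Of 53 tested members 4 rose and 2 fell, against medians of -0.06 for the list and 0.0018 for all genes, and beside 3.75% higher and 2.51% lower of all genes tested. Without WT replicate 2 edgeR called none of the list (7 higher and 2 lower at an unadjusted p under 0.05), without W330R replicate 2 it called 1 higher and none lower, and without the block 2 higher and 1 lower. Wnt4 fell from 7.02 and 12.1 to 0.481 and 1.1 CPM and Lef1, the nuclear partner of β-catenin, from 26.1 and 55 to 6.25 and 9.14 CPM (-2.35 ± 0.41, adjusted p = 0.00586). Porcn, whose enzyme attaches the lipid that WNT proteins need for secretion, was among the 12 deepest falls of genes averaging log2 CPM 1 or more, from 319 and 1006 to 64.8 and 100.2 CPM. Wnt5a rose from 18.3 and 16.2 to 35.3 and 39.9 CPM, Smad3 from 39.2 and 24.4 to 68.7 and 68.7 CPM and Grem1, a BMP antagonist gene, from 8.004 and 3.84 to 24.1 and 10.7 CPM.

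Matrix genes went both ways as well. Of 77 tested members 8 rose and 7 fell, with a median of 0.051, or -0.0040 with genes at the floor set to their bounds, and beside 3.75% higher and 2.51% lower of all genes tested. The 8 rises became 2 without WT replicate 2 and 3 without WT replicate 1 or without W330R replicate 2, and 5 without the block, which also left 3 falls. Those that fell held basement membrane genes of high level, such as Col4a1 (2772 and 5718 against 1670.4 and 1755 CPM) and Col4a2 (1701 and 3457 against 979.8 and 1008 CPM), and Col6a3 (4739 and 10094 against 1734 and 1772 CPM). In all 7 genes that fell WT replicate 2 was above WT replicate 1, and without that library none of the list was called lower, with 11 lower at an unadjusted p under 0.05 (edgeR). Without W330R replicate 2, 1 was called lower. Among those that rose were Thbs2, which encodes thrombospondin 2 (0.302 and 0.197 against 9.51 and 2.09 CPM), the elastic fibre genes Efemp1 (0.453 and 0.295 against 3.85 and 1.37 CPM) and Loxl1 (188 and 232 against 419.9 and 462 CPM), and Col1a2 (698 and 621 against 1099 and 1129.6 CPM). In the contractile list 4 of 31 rose and none fell, beside 3.75% of all genes called higher, with the tropomyosin genes Tpm2 (5.21 and 4.03 against 34.4 and 20.7 CPM), Tpm1 (139 and 70.2 against 291 and 184 CPM) and Tpm4 among them. Of these calls 2 held without the block, and leaving out 1 library gave 1 call without WT replicate 2 and 2 without either single W330R library.

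The remaining lists had few calls, to be read beside the 3.75% of all genes called higher and the 2.51% called lower. Glucocorticoid-induced genes had 1 rise and 4 falls of 37, and cAMP-induced genes 1 rise and 2 falls of 30. The falls held Per2, a clock gene (22 and 31.2 against 11.4 and 18.3 CPM), and Ppargc1a, the coactivator gene of mitochondrial growth (9.36 and 6.15 against 1.44 and 2.55 CPM). Of 42 IGF and insulin signalling genes 3 fell, with Insr, the insulin receptor gene, at 137 and 156 CPM in WT and 97.6 and 86.7 CPM in W330R. Replication genes had 1 rise and 2 falls of 56, and mitosis genes 2 falls of 53. None of 64 respiratory chain genes was called, though their median was -0.34, and none of 56 ribosomal protein genes, with a median of 0.13. Inflammatory genes had 3 rises of 37, led by Ptges, the prostaglandin E synthase gene (0.378 and 0.935 against 4.12 and 5.21 CPM). Germline genes known to be silenced by promoter methylation had 1 rise of 12 tested (Zcwpw1), imprinted genes 1 rise (Inpp5f) and 1 fall (Ube3a) of 26, and bone and cartilage genes 1 rise (Phex) and 1 fall (Atf4) of 33.

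**Figure D4:**
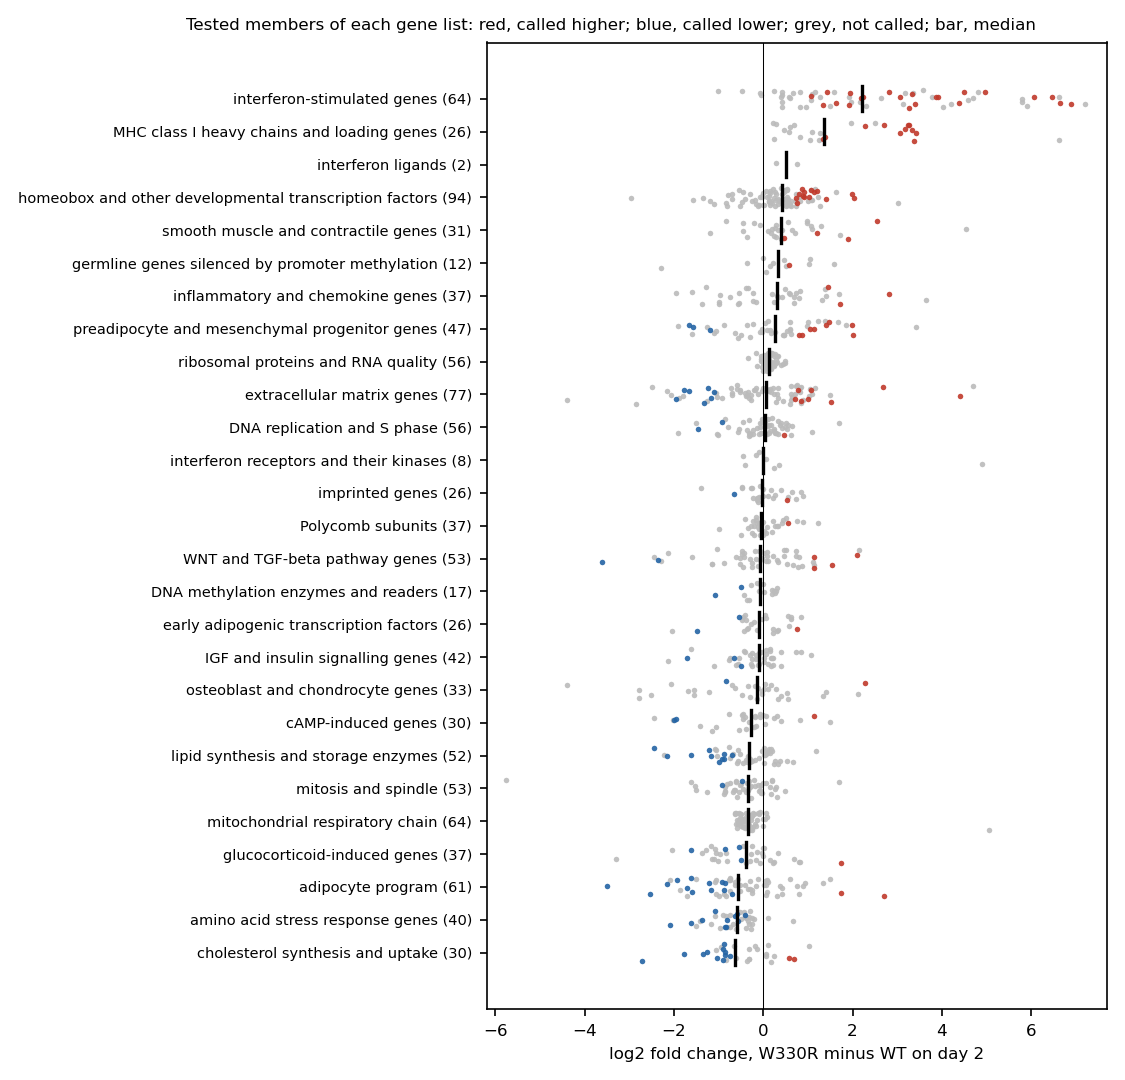
Log2 fold change of W330R over WT on day 2 for every tested member of each gene list (1 point per gene, the number tested in brackets), with called genes in colour and a bar at each list's median. The interferon-stimulated list has the highest median, 2.21, and the cholesterol list the lowest, -0.64, and the ribosomal list stays close to 0.

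The largest rises and falls held members of the lists and other genes. Among genes averaging log2 CPM 1 or more, 4 of the 12 largest rises were MHC class I genes. Usp18, Bst2 and Sp100 of the interferon-stimulated list were also among the 12, as were Apol9a and Ifi202b. The others were Phactr1, Nov and Npnt. Phactr1, an actin-binding phosphatase regulator gene, had 1.28 and 0.738 against 9.14 and 11.5 CPM (edgeR adjusted p = 0.000619). Nov, a secreted matricellular gene, had 3.17 and 0.984 against 31.8 and 11.5 CPM. Npnt, which encodes the integrin ligand nephronectin, had 3.1 and 0.935 against 19.7 and 15.2 CPM. In each of these genes W330R lay well above both WT libraries. Among the 12 largest falls at that level were Thbs4 (31.6 and 5.36 against 0.695 and 0.99 CPM), Penk, the enkephalin precursor gene (35.6 and 4.82 against 1.39 and 1.67 CPM), and B4galnt3 (73.7 and 10.8 against 2.99 and 2.93 CPM). In these 3 the WT replicates differed from each other several times over, replicate 1 being the higher. Ceacam1 fell from 76.6 and 112 to 21.9 and 5.29 CPM, and Hey2, a Notch target gene, from 4.38 and 11.6 to 1.5 and 0.952 CPM.

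Called genes sat next to each other in 10 runs of at least 3 neighbours, among 13418 tested genes with a RefSeq position. Besides the Trim30 and Parp14 runs these held Tgtp1, 9930111J21Rik2, Tgtp2 and Ifi47, a cluster of interferon-inducible GTPase genes, the H2-Q2, H2-Q4 and H2-Q5 genes, and Sp110, Sp140 and Sp100, nuclear body genes. Tgtp1 and Tgtp2 were at or under 3 counts in both WT libraries, and their mean W330R levels were 19.8 and 13.7 times the mean WT floor. Several of these runs are tandem copies, so reads may have been shared between neighbours. Runs of unlike genes included Lfng, Ttyh3 and Iqce, all higher, and Cks1b, Shc1 and Pygo2, all lower.

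The day-2 genes were next followed to the other stages, where WT and W330R have 2 libraries each. Libraries of days 4 and 6 are not independent of day 2. Across genes, replicate differences of day 2 correlated with those of day 4 (r = 0.438 in WT, 0.343 in W330R). With those of day 6 r was 0.300 in WT and 0.131 in W330R. Agreement between days is therefore not that of independent samples. In undifferentiated cells 273 of the 544 higher genes had a positive fold change, 50.2% against 48.2% of all genes, and 25 were called higher there, where 1.22% of all genes were, and 25 lower. On day 4 98.3% had the same sign and 379 were called in the same direction, beside 5.89% of all genes called higher on that day. On day 6 96.3% had the same sign and 278 were called, beside 4.52% of all genes. For the 365 lower genes the same sign was found in 50.1% of undifferentiated, 96.4% of day-4 and 88.8% of day-6 effects, with 17, 204 and 159 called lower beside 1.48%, 6.84% and 7.58% of all genes. The opposite call was found for 14 of these genes in undifferentiated cells, 0 on day 4 and 2 on day 6, and for 0 and 5 of the higher genes on days 4 and 6 (edgeR).

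**Figure D5:**
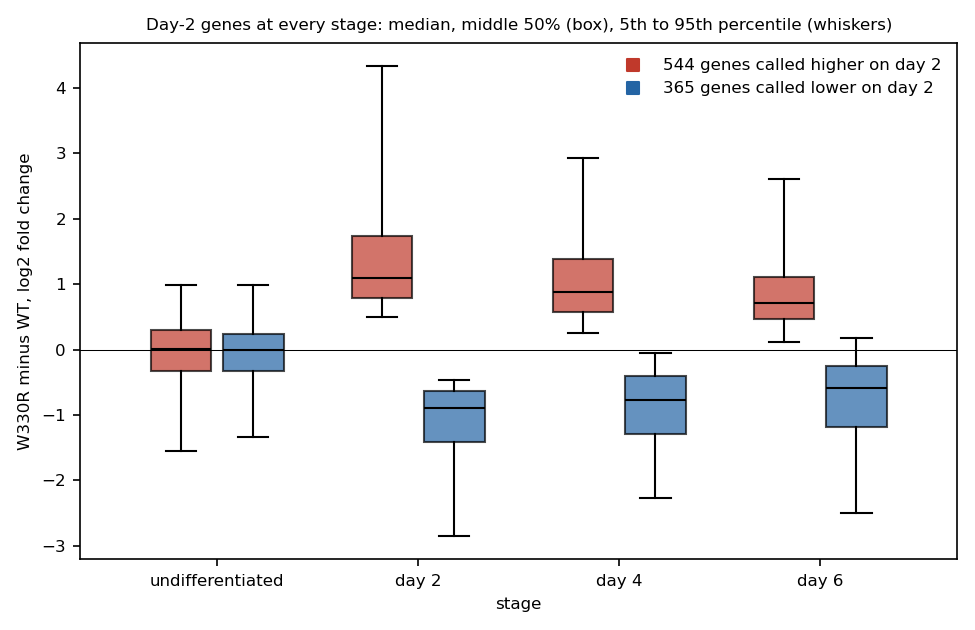
Log2 fold change of W330R over WT (vertical axis) at each stage for the 544 genes called higher and the 365 called lower on day 2, as boxes with medians and whiskers from the 5th to the 95th percentile. Both sets centre on 0 in undifferentiated cells, with medians of 0.0032 and -0.0016, and lie apart on day 2, where they were chosen, and on days 4 and 6, with medians of 0.89 and -0.76 and of 0.72 and -0.59.

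The effect on day 2 was also tested against that of each other stage. Against undifferentiated cells 510 genes (3.51%) had a different effect, 333 more positive and 177 more negative on day 2, and 285 of these were also called on day 2. Against day 4 none was called by edgeR, with 762 genes at an unadjusted p under 0.05 and 35 called by DESeq2. Against day 6 24 genes (0.165%) were called, 20 of them more positive on day 2, and 12 were called on day 2 too. Leaving out WT replicate 2 or W330R replicate 1 of day 2 gave 3 calls against day 6, and leaving out WT replicate 1 gave 14. Against undifferentiated cells 188 were called without WT replicate 2 and 286 without W330R replicate 2.

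By group, the interferon-stimulated genes had 1 call in each direction in undifferentiated cells, with a median of -0.04, then 22, 31 and 12 calls higher on days 2, 4 and 6, with medians of 2.21, 2.14 and 1.16. Of these genes 5 had an effect on day 2 above that in undifferentiated cells. Adipocyte program genes had 13, 32 and 43 calls lower on days 2, 4 and 6, and medians of -0.57, -1.15 and -1.65. None of their effects on day 2 was called different from that on day 4, and 2 lay above that on day 6. Cebpa had log2 fold changes of -0.83 ± 0.29 in undifferentiated cells (adjusted p = 0.174), -2.07 ± 0.27 on day 4 and -1.97 ± 0.27 on day 6. Pparg, not called on day 2, had -0.77 ± 0.22 on day 4 (adjusted p = 0.0342) and -1.09 ± 0.22 on day 6 (adjusted p = 0.00604). The change of Dnmt3a was not called at any other stage, with log2 fold changes of -0.10, -0.24 and 0.029.

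The day-2 calls were last set against the course of WT cells between days 4 and 6, libraries that the day-2 comparison did not use as groups although they entered the shared fit. Of 64 genes (0.441% of those tested) that rose in WT from day 4 to day 6, 20 were called higher in W330R on day 2 and none lower. Of 67 genes (0.461%) that fell in WT over those days, 25 were called lower in W330R on day 2 and 1 higher. Over all genes tested the day-2 shares were 3.75% higher and 2.51% lower. Over the longer course from undifferentiated to day 6, the 3978 genes (27.4%) that rose in WT held 135 higher and 154 lower day-2 calls, and the 3808 (26.2%) that fell held 188 higher and 113 lower.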

How the data were processed

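Total RNA was isolated with TriZol and libraries were made with the NEBNext Ultra II kit. Per the labels, the submitters' processing notes name kallisto, DESeq2 1.40 and GRCm39, with no roles given. The authors deposited raw counts per gene symbol (30170 genes, 22 libraries, whole numbers). Whether counting used strand is not given in the sources used here.

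From these counts, genes were kept by edgeR's filterByExpr (minimum count 10, minimum total 15), which left 14520 genes, and libraries were scaled by TMM. One quasi-likelihood model was fitted in edgeR 4.0.16 (R 4.3.3) to all 22 libraries, with 1 mean per genotype and stage and the replicate number as an additive block (10 residual degrees of freedom), and W330R was contrasted with WT on day 2. P-values were adjusted by Benjamini-Hochberg over all genes tested and genes called under 0.05. Differences between stages were contrasts of the same model. CPM use TMM-scaled totals, log2 CPM a prior count of 2, and 3 counts per library were taken as the floor for bounds of folds. Such a bound is the mean level of a group over the mean floor of the other, so a high library can carry it. Bounds and floors cover counting error only, while SEs are those of the fit and include the spread between libraries.

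On days 2, 4 and 6 same-numbered libraries deviated together in all 9 same-day pairs of groups (r from 0.157 to 0.534), with r = 0.0298 in undifferentiated cells, and the labels do not say what a number stands for. No 2 libraries of a group agreed within counting error.

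Genes were named by a rule: 3 DNA methyltransferases, the adipocyte markers with Cebpb, Cebpd and Pdgfra, the 12 largest rises and falls of genes averaging log2 CPM 1 or more, up to 4 called members per list and direction, and up to 3 genes per direction for each stage difference. The comparison, the lists and this rule were chosen with earlier results of these data known. Genes described beyond the rule, and the lists of interferon, interferon receptor and MHC class I genes, were chosen after their values were seen. Promoter windows came from RefSeq (GRCm38.p6). They covered 75.1% of genes tested, too few to compare shares of motifs between sets. On simulated data for the day-2 comparison (14370 genes, 198 changed) the fit recovered 40% of changes of log2 1 and 77% of log2 2, and 7.63% of its calls were false. The simulated counts used the spread of the shared fit for every library and the same replicate shift in both day-2 groups. They therefore do not measure the share of false calls in the real data. Alternatives were DESeq2 1.42.0, RLE scaling, no filter, no block, a block per stage, fewer libraries and leaving out each library.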

Additional observations from a re-analysis of the deposited data

Results flagged for a closer look

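The effect of W330R on day 2 differed from that in undifferentiated cells in 510 genes and from that on day 6 in 24, in a test of the difference itself (edgeR, contrasts of the same model). The 11 described here are up to 3 per direction and stage, taken by the naming rule. Each difference is a log2 value, day 2 minus the other stage.

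Against undifferentiated cells, the calcium channel gene Cacna1c differed by 6.01 ± 0.52 (SE, adjusted p = 0.000112). It was lower in undifferentiated W330R cells, at 0.49 and 0.81 CPM against 10.4 and 12 CPM in WT, and higher on day 2, at 52.9 and 31.2 CPM against 15.6 and 9.002 CPM. Npy1r, a neuropeptide Y receptor gene, turned the same way, with a difference of 6.58 ± 0.82 (adjusted p = 0.00104). Undifferentiated cells had 1.39 and 1.73 CPM in W330R and 15.4 and 17.2 CPM in WT, and on day 2 the levels were 12 and 7.38 and 0.755 and 1.38 CPM. Npnt differed by 5.39 ± 0.70 (adjusted p = 0.00114), from 0.735 and 0.231 CPM in undifferentiated W330R against 2.55 and 1.6 CPM in WT. In all 3 genes the groups stood apart at both stages, in opposite orders. The undifferentiated difference of Npnt was not called (edgeR adjusted p = 0.0728), and its W330R replicate 2 lay under 3 counts there.

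Pag1, an adaptor gene of Src kinases, turned the other way, and so did the levels of Ceacam1. Pag1 differed by -3.87 ± 0.41 (adjusted p = 0.000448), with 40.3 and 40.5 CPM in undifferentiated W330R, 12.3 and 12.3 CPM in undifferentiated WT, and 15.9 and 20.02 against 47.1 and 115 CPM on day 2. Ceacam1 differed by -3.96 ± 0.93 (edgeR adjusted p = 0.0335), with 34.4 and 37 CPM in undifferentiated W330R and 17.1 and 15.8 CPM in WT. That undifferentiated difference was not called (edgeR adjusted p = 0.476). For Abcg1 the fitted difference was -5.66 ± 1.34 (adjusted p = 0.0348). Its undifferentiated WT libraries were at or under 3 counts, at 0.0881 and 0 CPM, with 0.0817 and 0.463 CPM in W330R, so that value is not a measured size. The undifferentiated groups overlapped, and no turn was measured for this gene.

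Against day 6, Sdpr, a caveolar gene, differed by 2.08 ± 0.26 (adjusted p = 0.00999). It was higher in W330R on day 2, at 124 and 103 against 61.2 and 50.3 CPM, and lower on day 6, at 130.2 and 101 against 208 and 268 CPM. Gpx8, a peroxidase gene of the endoplasmic reticulum, differed by 2.02 ± 0.29 (adjusted p = 0.0116), with 108 and 86.7 CPM in W330R and 159 and 272 CPM in WT on day 6. Plscr2 was higher at both stages and differed by 1.74 ± 0.28 (adjusted p = 0.0225). Dock5 was lower on day 2, at 52.8 and 51.1 against 80.7 and 79.2 CPM, and higher on day 6, at 84.6 and 94.4 against 61.6 and 51 CPM, a difference of -1.29 ± 0.18 (adjusted p = 0.0116). Dst, a cytoskeletal linker gene, differed by -1.23 ± 0.22 (adjusted p = 0.0419).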

How the results depend on the processing

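The count of 909 day-2 calls (544 higher, 365 lower) moved with the libraries in the fit, the block and the tool. Leaving out each library in turn gave 85 to 831 calls, 56 to 497 higher and 29 to 334 lower, the lowest without replicate 2 of WT, where the lone library is assumed to vary like the other groups. Without the replicate block 445 genes were called (273 higher, 172 lower). With only the 4 libraries and the block 277 were called (180 higher, 97 lower). With the 4 libraries and no block edgeR called 0, with 1579 genes at an unadjusted p under 0.05. DESeq2 with the block called 1608 (859 higher, 749 lower), and a block of its own at each stage gave 575 lower. RLE scaling and no filter moved none of these counts by over 1.5 times, nor did the 18 libraries without undifferentiated cells. Against undifferentiated cells the 510 differing effects became 271 without the block, 784 with a block per stage, 1016 by DESeq2 and 188 to 362 without single libraries, and the 18 libraries could not be used. Against day 4 DESeq2 called 35. Against day 6 the 24 became 13 without the block, 11 with 18 libraries, 60 with a block per stage, 215 by DESeq2 and 3 to 27 without single libraries. Of 106 named genes called, 40 lost the call without the block and 18 with the 18 libraries. Signs turned in named genes that were not called: Dnmt3b became 0.0032 (log2 fold change) with no filter, and Lipe -0.032 with a block per stage and -0.0063 with 4 libraries. Without single libraries, log2 fold changes ranged from -0.023 to 0.46 for Dnmt1, -0.17 to 0.12 for Dnmt3b, -0.21 to 0.47 for Pparg, -0.80 to 0.0798 for Fabp4, -0.52 to 0.089 for Plin1, -0.39 to 0.36 for Lipe, -2.08 to 0.43 for Cfd, -0.72 to 0.32 for Cebpb and -0.032 to 0.50 for Cebpd. The cause was not tested. Depth limits genes near 3 counts, 33 of the higher and 7 of the lower calls.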
